A study of Triticum aestivum with 12 samples.

Results

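The grain transcriptome of the hard red winter wheat cultivar TAM111 was followed between mid and early grain filling, at 14 and at 5 days after flowering (DAF). The 6 TAM111 libraries, 3 at 14 DAF and 3 at 5 DAF, were taken by cultivar and stage from the 12 libraries of the series, and all 120744 features of the count table were examined. The other 6 libraries come from the cultivar TAM112 at the same stages and are used only where the TAM111 stage difference is set against that of TAM112. The labels place all plants in the field in the same season and name no treatment, and each library holds poly-A RNA of several whole grains of similar size from a single inflorescence. Whole grains mix maternal and filial tissues, so a gene can differ between stages because its cells became fewer or because each cell held less of its RNA, and bulk RNA cannot tell these apart. Whether replicates came from separate plants is not stated, so p-values measure only the spread between these samples.

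A wheat grain first builds its endosperm by nuclear division and cellularization while the maternal pericarp still makes up much of its mass. The endosperm then fills with starch and storage proteins, which are encoded by large, tandemly arranged gene families in cereals. Bread wheat is hexaploid, so most genes exist as homeologs on the A, B and D subgenomes. The features carry identifiers and positions on the IWGSC RefSeq assembly (version 1.0), with no gene names. No storage protein, starch or tissue marker list could therefore be drawn up, and the label of the tissue could not be checked against its markers. The genes with a known identity are 34 transcription factors that the study placed in families, and all other genes are described by position, length, exon number and level.

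Between the stages, 15609 of 65080 tested genes (24%) were called by edgeR's quasi-likelihood test. A call required an adjusted p below 0.01 and a log2 fold change beyond 1 in either direction. Of these, 8743 (13.4%) were higher and 6866 (10.6%) were lower at 14 DAF than at 5 DAF. The higher genes differed by more than the lower ones. At 5 DAF, 1661 of the higher genes had at most 3 counts in every library, and at 14 DAF this held for 697 of the lower genes. With such genes set to a lower bound computed against 3 counts, the median absolute log2 fold change was 2.39 for the higher genes and 1.73 for the lower genes (2.53 and 1.74 as fitted), and 13.2% of the higher and 4.62% of the lower genes lay over 5. Genes at this floor lie on the straight outer edges of the plot of fold change against level, where the fitted value depends on the small prior count and is not a measured fold. The median log2 fold change over all tested genes was 0.04. With library totals alone in place of scaled library sizes this median was -0.18 and 41.8% of the called genes were higher at 14 DAF, against 56.0% with scaling.

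**Figure D1:**
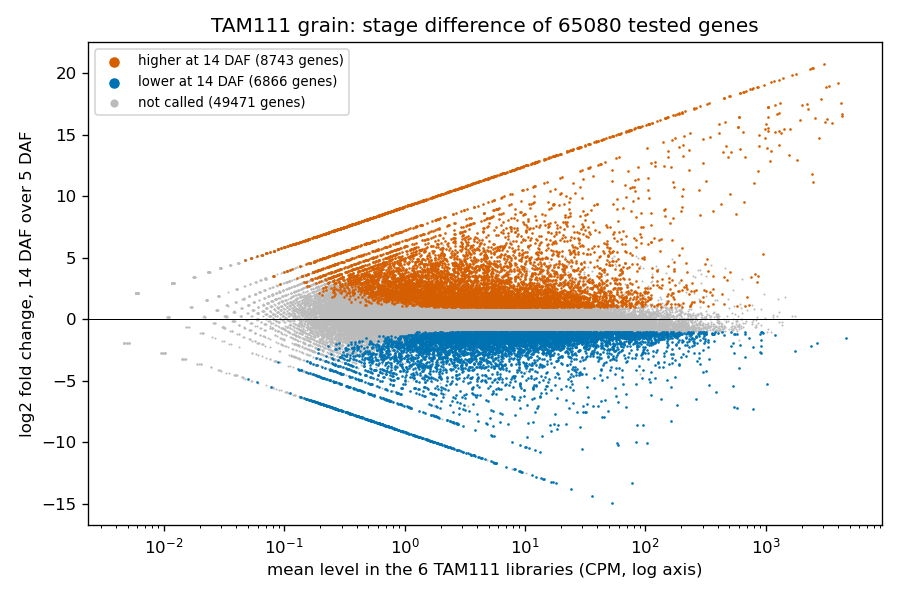
Each point is 1 of 65080 tested genes in TAM111 grain, with its mean level in CPM (counts scaled to library size) over the 6 libraries on a log axis and its log2 fold change, 14 DAF over 5 DAF. The 8743 genes called higher include a group at the right-hand end near 1000 CPM and above with large positive values, and the 6866 genes called lower are closer to 0 at the same levels.

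The libraries held 33632653, 36014099 and 32714630 counts at 14 DAF and 31916077, 35918861 and 37264343 counts at 5 DAF, so depth overlapped between the stages. Features with at least 1 count numbered 73236 ± 866 at 14 DAF and 69535 ± 378 at 5 DAF (SD, n = 3 each). Libraries of a stage differed by far more than counting noise, with chi-square values of 17.2 to 36.3 per degree of freedom, and no pair was a repeat of the same library. The biological coefficient of variation was 0.206 at 14 DAF and 0.338 at 5 DAF.

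At 5 DAF, library 3 stood apart from the other TAM111 libraries. In 583 genes, 0.896% of those tested, it lay over 8-fold below both other 5 DAF libraries. Each of the other 5 TAM111 libraries lay that far below its partners in 6 to 52 genes. Together these 583 genes held 36348, 50347 and 37568 CPM at 14 DAF, against 5828, 5511 and 250 CPM at 5 DAF. The gap between 250 CPM and the other 5 DAF values follows from how the genes were picked, but the 14 DAF values do not. Set against the mean of 5 DAF libraries 1 and 2, 311 of these genes were over 2-fold higher at 14 DAF, 119 were over 2-fold lower and 153 lay within 2-fold. Genes low in library 3 thus differed both ways between the stages, with more of them on the higher side. Libraries 1 and 2 were part of the pick, and the same split over all tested genes is not given here, so these counts are a description. In TAM112, the 5 DAF library with the same number was likewise the lowest of its group for 533 of the 583 genes, with no share over all tested genes to set beside it. It lay over 8-fold below both of its partners in 261 of the 583 genes, and in 539 genes in all. A library 3 that stood apart at 5 DAF was thus seen in both cultivars. Across genes, log levels in TAM111 5 DAF libraries 1 and 2 had a correlation of 0.970, and library 3 had 0.946 with library 1 and 0.950 with library 2. What sets library 3 apart was not tested.

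**Figure D2:**
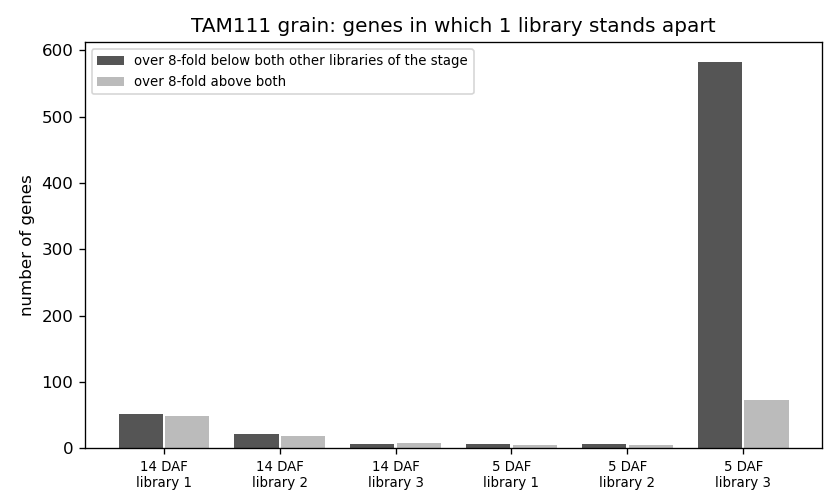
Bars give, for each TAM111 library, the number of tested genes whose level was over 8-fold below (dark) or above (light) both other libraries of the same stage. 5 DAF library 3 has 583 genes below and 73 above, and no other TAM111 library exceeds 52 below.

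With 5 DAF library 3 left out of a fit to the TAM111 libraries alone, 15850 of 61591 tested genes were called (25.7%), of which 9047 (14.7%) were higher and 6803 (11%) lower at 14 DAF. In both fits, which share all other TAM111 libraries, 13450 genes were called, all 13450 in the same direction. A further 2400 were called only without the library, and the rest of the 15609 genes called with all libraries were not called without it. Of the 583 genes, the fit to all libraries called 93 higher and 18 lower, and the fit without library 3 called 288 higher and 80 lower. This fit, chosen after seeing the data, differs from the one reported in leaving out both the library and the TAM112 groups, which share the estimate of the spread. Leaving library 3 out of the fit to all groups gave 13205 calls (19.8%), with 94 of the 583 genes higher and 50 lower. The TAM111 libraries alone, with library 3 kept, gave 15322 calls (23.5%), with 133 of the 583 higher and 14 lower. Leaving out the third 5 DAF library of both cultivars, also chosen after seeing the data, gave 14802 calls (22.3%), with 198 of the 583 higher and 63 lower. Within the 583 genes, leaving out library 3 alone thus changed the calls less than leaving it out together with the TAM112 groups or with the third TAM112 library. The total went the other way. Among these fits it changed most with library 3 alone left out, to 13205 against 15609 with all libraries. The 583 genes include 13 of the 34 transcription factors.

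At 14 DAF a larger share of the transcriptome came from a few genes. The 20 most abundant genes of each library took 14.0%, 14.2% and 9.86% of its TPM (a level per transcript length, scaled to the same sum in every library) at 14 DAF, against 6.53%, 7.73% and 7.06% at 5 DAF. The means were 12.7 ± 2.43% at 14 DAF and 7.11 ± 0.60% at 5 DAF (SD, n = 3 each), and the groups did not overlap (exact two-sided permutation p = 0.1, the smallest that 3 against 3 libraries allow). The number of genes that held 50% of all TPM was 666, 604 and 952 at 14 DAF, against 1696, 1293 and 1361 at 5 DAF. 14 DAF library 3 was the least concentrated of its stage by both measures.

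**Figure D3:**
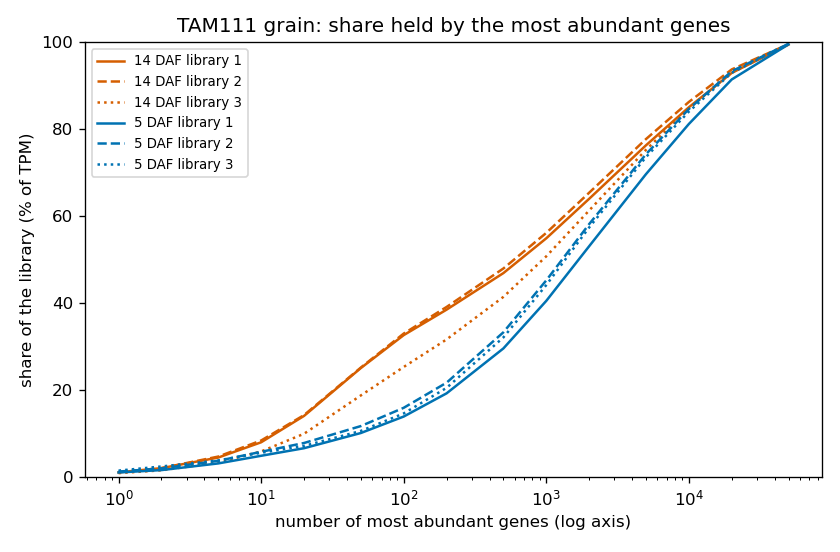
Lines give the cumulative share of a library's TPM (%) held by its most abundant genes, counted on a log axis, for each of the 6 TAM111 libraries. From 20 to 2000 genes the 3 lines of 14 DAF run above the 3 lines of 5 DAF, and at 20 genes they lie between 9.86% and 14.2% against 6.53% to 7.73%.

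The genes behind this concentration were nearly silent at 5 DAF. The 10 most abundant genes among those called higher had mean levels of 6211 to 8703 TPM at 14 DAF and of at most 3.08 TPM at 5 DAF. As a group they took 7.53%, 8.29% and 5.62% of TPM at 14 DAF, against 0.000613%, 0.00064% and 0.000115% at 5 DAF. All 10 have a single exon, against 16.2% of the tested genes, and are 436 to 1068 bases long. Of the 10, 4 lie on chromosome 1D and 2 on 1B. They were picked by level and by their call, so these values describe them and test nothing. TraesCS4B02G328100 (4B, 618654367 to 618654873, a single exon of 507 bases) had 4332, 5973 and 4161 CPM at 14 DAF, against 1.72, 2.16 and 0.085 CPM at 5 DAF. The stages were far apart in every library, and 5 DAF library 3 was again the lowest. Its log2 fold change was 11.83 ± 2.07 (SE, edgeR adjusted p = 0.000746). TraesCS1B02G010400 (1B, 4965664 to 4966572, 1 exon) had 9254, 9830 and 5103 CPM at 14 DAF and a single count in all 5 DAF libraries together. This made it at least 91027-fold higher at 14 DAF, taking 3 counts per library as the floor. In TAM112 the same gene had 812 ± 799 CPM at 14 DAF and 11.9 ± 15.7 CPM at 5 DAF (SD, n = 3 each), with a spread close to the mean at 14 DAF and above it at 5 DAF.

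Most abundant genes that were lower at 14 DAF kept a measurable level. The 10 with the highest 5 DAF levels among them took 1.08%, 0.941% and 1.23% of TPM at 14 DAF, against 4.41%, 5.36% and 5.32% at 5 DAF. None of them was at the floor at 14 DAF, and 6 have a single exon. The largest difference among the 10 was that of a single-exon gene on 2B (696080847 to 696081190), which had 10.99, 30.1 and 21.8 TPM at 14 DAF, against 3015, 3841 and 4123 TPM at 5 DAF, a log2 fold change of -7.10 ± 0.61 (SE, edgeR adjusted p = 8.19e-06). In the other 9 the mean at 14 DAF was 472 TPM or more. TraesCS1D02G034800 (1D, 15321414 to 15322306, 3 exons) had 3077, 2758 and 3554 TPM at 14 DAF, against 9333, 11421 and 13703 TPM at 5 DAF. It was the most abundant of these genes at 5 DAF and remained above 2000 TPM at 14 DAF, with a log2 fold change of -1.56 ± 0.33 (SE, edgeR adjusted p = 0.00235). It narrowly missed the threshold without 14 DAF library 1 (adjusted p = 0.0101) and without 5 DAF library 3 (adjusted p = 0.0103). TraesCS1B02G042200 (1B, 22069090 to 22069961, 3 exons) had 1581, 1377 and 1836 TPM at 14 DAF, against 5536, 7376 and 9508 TPM at 5 DAF. Its log2 fold change was -1.91 ± 0.36 (adjusted p = 0.00115 from the same test). Both genes stayed above 1000 TPM at both stages.

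Across levels, the direction of the calls changed. Among the 376 tested genes with a mean over 300 CPM, 32.7% were higher and 17.8% were lower at 14 DAF. In the class below, of 100 to 300 CPM, 10.5% were higher and 19.8% lower. The share of genes called lower went up with level through 7 classes, to 6.25% at 0.3 to 1 CPM, 11.4% at 3 to 10 CPM and 15.97% at 30 to 100 CPM, and counting noise is larger in the low classes. The share called higher was 15.9% at 1 to 3 CPM and 11.8% at 30 to 100 CPM. The surplus of higher genes among the most abundant ones was not shared by the classes just below. Levels were averaged over the same TAM111 libraries that were tested. Genes abundant only at 14 DAF therefore enter the top class through their 14 DAF values, and the shares are a description.

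Short gene structures were called more often than long ones, in both directions. Of 10571 tested genes with 1 exon, 15.9% were higher and 15.3% lower at 14 DAF, whereas of 1491 genes with over 20 exons 3.82% were higher and 5.90% lower. The classes between followed this order for the lower genes from 1 exon to 11 to 20 exons, and for the higher genes from 2 exons on. Among genes of similar level, 3 to 30 CPM, the shares were 19.2% higher and 21.1% lower with 1 exon, and 2.67% higher and 6.10% lower with over 20 exons. The order held in all 6 classes there, in both directions. Genes share families and neighbours, and these shares are given as a description.

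**Figure D4:**
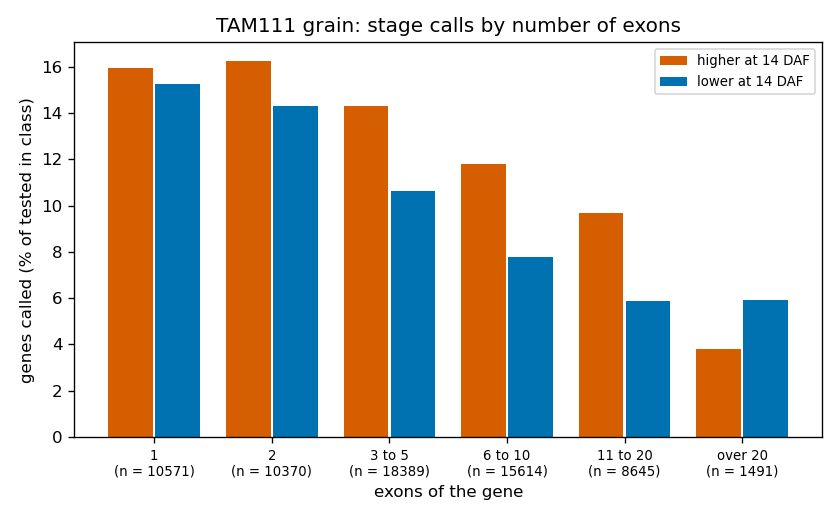
Bars give the percentage of tested genes called higher (left of each pair) or lower (right) at 14 DAF than at 5 DAF, by the number of exons of the gene, with the number of genes tested under each pair. The bars for 1 exon stand at 15.9% and 15.3%, and those for over 20 exons at 3.82% and 5.90%.

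The calls differed little between the subgenomes. On the A, B and D subgenomes 13.2%, 13.4% and 13.8% of the tested genes were higher, and 10.4%, 10.5% and 10.8% were lower at 14 DAF. Single chromosomes ranged between 11.9% (6B) and 14.4% (4D) for the higher genes. Non-coding features differ from these shares, with 3 higher and 7 lower of 436 tested. Of the 7 lower non-coding features, 6 lie on sequence not placed on a chromosome, some of them side by side. The share of all 436 that lies there is not given here.

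On a finer scale, some neighbouring genes were called together. Runs of at least 3 neighbouring tested genes held 952 of the higher genes (10.9%) and 472 of the lower genes (6.87%). Runs of at least 5 numbered 30 among the higher and 4 among the lower genes. More genes were called higher than lower, so these counts are not set against each other, and no share by chance was computed. The run with the most members was on 6B (43384370 to 44062725), where 11 neighbouring genes of 1 or 2 exons summed to 2631, 3786 and 1899 CPM at 14 DAF, against 0, 0 and 0.056 CPM at 5 DAF. All 11 genes were at the floor at 5 DAF in TAM111, and 14 DAF library 3 was the lowest of its stage. The next had 10 genes of 1 to 7 exons on sequence not placed on a chromosome, where neighbours in the assembly need not be neighbours in the genome. Its genes summed to 9348, 12498 and 5928 CPM at 14 DAF, against 0.31, 0.36 and 0.17 CPM at 5 DAF. On 6A (24921651 to 25582017), 9 single-exon genes of 840 to 957 bases summed to 11812, 12402 and 8814 CPM at 14 DAF, against 0.031, 0.33 and 0.085 CPM at 5 DAF. On 1B (4965664 to 5142922), 7 single-exon genes that include TraesCS1B02G010400 summed to 28781, 31192 and 15915 CPM at 14 DAF, against 0.12, 0.36 and 0.028 CPM at 5 DAF. How reads that match several near-identical copies were handled is not given, so values of single members and sums over a run are both uncertain.

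A run on 4A (668160224 to 668352789) had another character. Its 9 genes, all of 3 exons, summed to 188, 381 and 289 CPM at 14 DAF, against 5.23, 8.41 and 6.60 CPM at 5 DAF, and only 1 of them was at the floor at 5 DAF. Runs of 8 genes on 5B (703168085 to 703306909) and 2B (753997009 to 754661405) had sums of 148 to 208 and 58.9 to 98.3 CPM at 14 DAF, against 6.71 to 29.1 and 7.39 to 12.7 CPM at 5 DAF. Among the lower genes, the run with the most members was on 7B (641367416 to 642262413), where 6 genes summed to 35.7, 39.8 and 35.1 CPM at 14 DAF, against 146, 129 and 127 CPM at 5 DAF. Here 4 genes were at the floor at 14 DAF. In TAM112 the same 6 genes summed to 382, 390 and 218 CPM at 14 DAF and 193, 280 and 270 CPM at 5 DAF, so the stages overlapped there.

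Transcription factors bind DNA and set which genes are transcribed. The 34 factors with a known family were picked by the study from networks built on these same samples, for a difference in connectivity between the cultivars, so they are not an independent sample and their counts are a description. Of the 34, 17 were higher and 3 lower at 14 DAF, against 13.4% and 10.6% of all tested genes, and 14 were not called. The levels at the stages did not overlap in 31 of the 34, against 56.1% of all tested genes. Their median log2 fold change was 3.87, also with genes at the floor set to their lower bound, against 0.04 over all genes. In 24 of the 34, 5 DAF library 3 had the lowest level of its stage, and the share over all tested genes is not given here. With this library left out of a TAM111 fit, 28 were higher and 3 lower. With it left out of the fit to all libraries alone, 19 were higher and 3 lower. With the third 5 DAF library of both cultivars left out, 27 were higher and 3 lower.

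**Figure D5:**
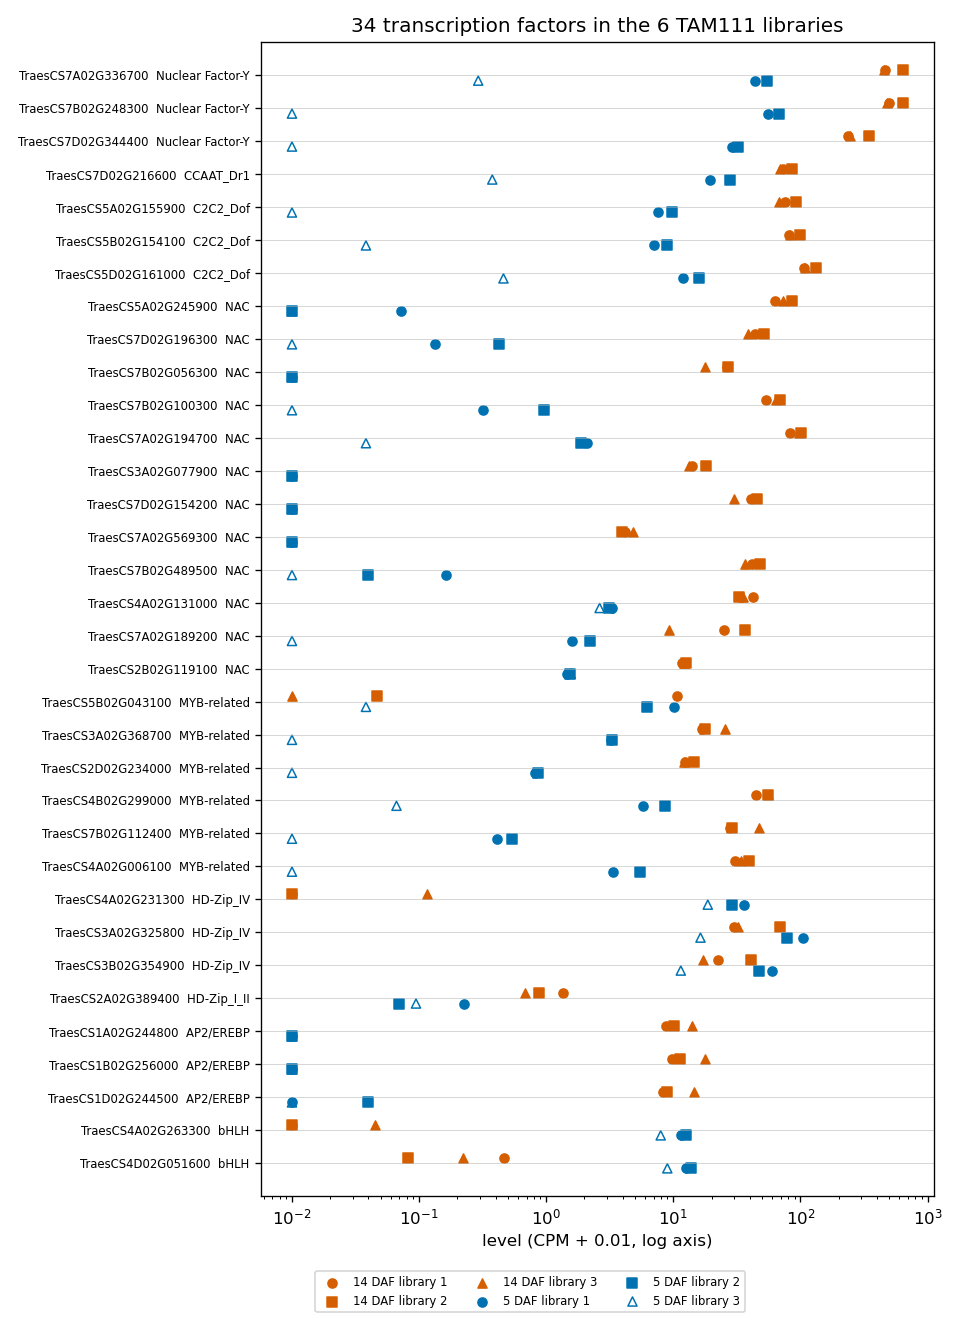
Each row is a transcription factor with its family, and points give its level (CPM + 0.01, log axis) in the 3 libraries of 14 DAF (orange, upper) and the 3 libraries of 5 DAF (blue, lower), with 5 DAF library 3 as an open triangle. In 31 of the 34 rows the colours do not overlap, and in the Nuclear Factor-Y and Dof rows the open triangle lies far to the left of the other 5 DAF points.

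Nuclear Factor-Y is a trimer that binds CCAAT boxes in promoters, and the closest rice homologs of the 3 NF-YC homeologs take part in grain filling and endosperm development. TraesCS7A02G336700 (7A, 492780503 to 492782168) had 463, 639 and 451 CPM at 14 DAF, against 44.0, 54.9 and 0.28 CPM at 5 DAF. TraesCS7B02G248300 (7B, 458611206 to 458612983) had 499, 641 and 484 CPM at 14 DAF, against 55.3, 67.5 and 0 CPM at 5 DAF. TraesCS7D02G344400 (7D, 441981013 to 441982621) had 237, 346 and 246 CPM at 14 DAF, against 28.7, 32.2 and 0 CPM at 5 DAF. The stages did not overlap in any of the 3, as was so for 56.1% of all tested genes. For all 3, 5 DAF library 3 was at or near 0 while the other 5 DAF libraries held at least 28.7 CPM. Their log2 fold changes were 3.97 ± 1.34, 3.72 ± 1.49 and 3.77 ± 1.44 (SE). None was called by edgeR (adjusted p = 0.029, 0.0581 and 0.0488), all 3 had an unadjusted p under 0.05, as did 53.1% of all tested genes, and DESeq2 called 1 of them, against 27.7% of all genes. Without 5 DAF library 3 in the fit to all groups the log2 fold changes were 3.38, 3.13 and 3.18, and again none was called (adjusted p = 0.0225, 0.0351 and 0.0393). Without it in the fit to the TAM111 libraries alone they were 3.38 ± 0.29, 3.13 ± 0.28 and 3.17 ± 0.27, and all 3 were called (adjusted p = 5.86e-06, 6.98e-06 and 5.75e-06).

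The shares of the NF-YC homeologs varied little between libraries of a stage. In TPM, the 7A copy took 38.7 to 39.8% of their sum at 14 DAF and 34.8 to 36.0% in 5 DAF libraries 1 and 2. The 7B copy took 37.6 to 39.8% at 14 DAF and 41.3 to 41.8% in the same 5 DAF libraries, and the 7D copy took 21.1 to 22.6% at 14 DAF and 22.2 to 23.9% there. The 7A share was thus higher and the 7B share lower at 14 DAF, without overlap of these few libraries, and no test was run on 3 against 2 libraries.

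The 3 Dof factors, plant zinc finger proteins, followed the same pattern. TraesCS5D02G161000 (5D, 251063289 to 251065090) had 107, 134 and 108 CPM at 14 DAF, against 11.97, 15.8 and 0.45 CPM at 5 DAF. Its homeologs TraesCS5A02G155900 (5A) and TraesCS5B02G154100 (5B) had 67.8 to 92.2 and 80.9 to 99.2 CPM at 14 DAF, and 0 and 0.028 CPM in 5 DAF library 3. Over the NF-YC and Dof genes together, the log2 fold changes of 3.63 to 4.04 had adjusted p-values of 0.0107 to 0.0581 in edgeR with all libraries. Without 5 DAF library 3 in the fit to all groups, these were 0.0095 to 0.0393, and TraesCS5D02G161000 alone among the 6 was called. Without it in the TAM111 fit, these were 1.31e-06 to 6.98e-06, at log2 fold changes of 3.05 to 3.44. None of the 3 Dof genes was called with all libraries. All 3 had an unadjusted p under 0.05, as did 53.1% of all tested genes, and DESeq2 called 2, against 27.7% of all genes. TraesCS7D02G216600 (7D), annotated as CCAAT_Dr1, a subunit type related to the NF-Y histone-fold proteins, had 72.9, 86.1 and 68.5 CPM at 14 DAF, against 19.3, 28.0 and 0.37 CPM at 5 DAF (log2 fold change 2.25 ± 1.07, edgeR adjusted p = 0.105). It was called only in the TAM111 fit without library 3, at 1.66 ± 0.24 (adjusted p = 0.000252), and neither without library 3 in the fit to all groups (adjusted p = 0.127) nor without the third 5 DAF library of both cultivars (adjusted p = 0.0109).

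NAC factors are a plant-specific family with roles in development, stress and senescence. Of 12 NAC genes, 11 were called higher at 14 DAF, against 13.4% of all tested genes. All 12 had stages that did not overlap, against 56.1% of all tested genes. In 5 of the 12 NAC genes the 5 DAF libraries were at the floor. TraesCS5A02G245900 (5A, 459002657 to 459004002) had 63.5, 86.3 and 72.4 CPM at 14 DAF and 2 counts in all 5 DAF libraries together, which makes it at least 836-fold higher. TraesCS7D02G154200 (7D) was at least 438-fold, TraesCS7B02G056300 (7B) at least 269-fold, TraesCS3A02G077900 (3A) at least 170-fold and TraesCS7A02G569300 (7A) at least 48.5-fold higher at 14 DAF, all 4 with no count at 5 DAF. Their absence at 5 DAF held in all 3 libraries, so these calls do not rest on library 3.

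The other NAC genes were above the floor in at least 1 library at 5 DAF, some of them only just. TraesCS4A02G131000 (4A, 174155319 to 174157653) had 42.4, 32.6 and 35.1 CPM at 14 DAF, against 3.29, 3.11 and 2.62 CPM at 5 DAF. With a narrow spread at both stages, its log2 fold change was 3.61 ± 0.25 (SE, edgeR adjusted p = 2.63e-06). TraesCS2B02G119100 (2B, 85175914 to 85178065) had 11.8, 12.6 and 12.1 CPM at 14 DAF, against 1.45, 1.54 and 1.55 CPM at 5 DAF, and a log2 fold change of 3.004 ± 0.40 (adjusted p = 0.000136 from the same test). In these 2 genes 5 DAF library 3 lay within or near the range of its partners. TraesCS7A02G194700 (7A) had 83.4, 102 and 98.2 CPM at 14 DAF, against 2.09, 1.87 and 0.028 CPM at 5 DAF. TraesCS7D02G196300 (7D), TraesCS7B02G100300 (7B) and TraesCS7B02G489500 (7B) had 36.5 to 69.7 CPM at 14 DAF and less than 1 CPM in every 5 DAF library. Of these, TraesCS7B02G489500 had 5, 1 and 0 counts at 5 DAF, which is near the floor. The NAC gene that was not called, TraesCS7A02G189200 (7A), had 24.9, 36.6 and 9.26 CPM at 14 DAF, against 1.6, 2.19 and 0 CPM at 5 DAF, with an adjusted p of 0.0156 in edgeR.

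The 3 homeologs of TaDREB5, an AP2/EREBP factor induced by drought and abscisic acid, were measured at 14 DAF and at the floor at 5 DAF. TraesCS1A02G244800 (1A, 432852085 to 432853063) had 8.74, 10.1 and 14.1 CPM at 14 DAF and TraesCS1B02G256000 (1B, 451134276 to 451135517) had 9.83, 11.3 and 17.8 CPM, both with no count at 5 DAF. TraesCS1D02G244500 (1D, 335287142 to 335287837) had 8.21, 8.95 and 14.7 CPM at 14 DAF and 1 count in all 5 DAF libraries together. They were at least 124-fold, 147-fold and 120-fold higher at 14 DAF in that order, and edgeR called all 3, against 13.4% of all tested genes. At 14 DAF the highest level of each was in library 3. In TPM the copy on 1D took 38.4 to 40.7% of their sum, and the copies on 1A and 1B took 27.9 to 30.7% and 30.2 to 31.4%.

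Of the 6 MYB-related factors, 2 were called higher, against 13.4% of all tested genes. TraesCS7B02G112400 (7B, 128821909 to 128823330) had 28.0, 29.0 and 47.6 CPM at 14 DAF, against 0.40, 0.53 and 0 CPM at 5 DAF, a log2 fold change of 6.81 ± 1.05 (SE, edgeR adjusted p = 0.000333). TraesCS2D02G234000 (2D, 211198580 to 211200223) had 12.4, 14.5 and 12.1 CPM at 14 DAF, against 0.80, 0.86 and 0 CPM at 5 DAF, a log2 fold change of 4.56 ± 1.04 (adjusted p = 0.00383). It missed the threshold narrowly when any 14 DAF library, or 5 DAF library 1 or 2, was left out (adjusted p = 0.0106 to 0.0127). The genes TraesCS3A02G368700 (3A), TraesCS4B02G299000 (4B) and TraesCS4A02G006100 (4A) had 16.8 to 55.3 CPM at 14 DAF and 3.23 to 8.62 CPM in 5 DAF libraries 1 and 2, with 0, 0.056 and 0 CPM in library 3, and were called in the TAM111 fit without that library. Left out of the fit to all groups, it changed the call of TraesCS3A02G368700 (edgeR adjusted p = 0.00554) but not those of TraesCS4B02G299000 (0.0282) and TraesCS4A02G006100 (0.0434). In each of the 6 MYB-related genes 5 DAF library 3 was the lowest of its stage.

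TraesCS5B02G043100, the remaining MYB-related gene (5B, 47727186 to 47730952), split the libraries of both stages. It had 10.7, 0.036 and 0 CPM at 14 DAF, against 10.03, 6.16 and 0.028 CPM at 5 DAF, with a log2 fold change of -0.59 ± 1.38 (edgeR adjusted p = 0.755). Each stage thus held libraries with a clear level and libraries with at most 1 count. A search for other genes with the same or the mirrored split, over 8-fold in both stages, found 4 genes, this one included, that were high in 14 DAF library 1 and 5 DAF libraries 1 and 2, and 18 genes that were high in 14 DAF libraries 2 and 3 and 5 DAF library 3. The 18 genes summed to 2.49, 247 and 232 CPM at 14 DAF, against 1.94, 1.21 and 202 CPM at 5 DAF. Of these, 8 lie on 2B (745034233 to 771040774) and 7 on 5B (56562812 to 155281933). What separates these libraries is not recorded in the labels, and its part in the stage calls was not tested.

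Factors that were lower at 14 DAF belonged to the HD-Zip IV and bHLH families. HD-Zip proteins join a homeodomain to a leucine zipper, and members of class IV are known for roles in the epidermis of plants. TaHDZ30A (TraesCS4A02G231300, 4A, 540600151 to 540604505) had 0, 0 and 0.11 CPM at 14 DAF, against 35.8, 28.9 and 18.7 CPM at 5 DAF, at least 261-fold lower. Both bHLH factors fell in the same way. TraesCS4A02G263300 (4A, 575776524 to 575781443) had 0, 0 and 0.035 CPM at 14 DAF, against 11.5, 12.5 and 7.95 CPM at 5 DAF, at least 100.2-fold lower. TraesCS4D02G051600 (4D, 27395032 to 27399921) had 0.46, 0.072 and 0.21 CPM at 14 DAF, against 12.6, 13.8 and 8.97 CPM at 5 DAF, and a log2 fold change of -5.55 ± 0.69 (edgeR adjusted p = 8.39e-05). All 3 were also called lower in TAM112, where 9.27% of all tested genes were.

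The homeologs TaHDZ29A and TaHDZ29B of class IV were not called. TaHDZ29A (TraesCS3A02G325800, 3A, overlapping another annotated feature) had 30.04, 68.6 and 32.1 CPM at 14 DAF, against 105, 79.1 and 16.4 CPM at 5 DAF. TaHDZ29B (TraesCS3B02G354900, 3B) had 22.5, 40.5 and 17.1 CPM at 14 DAF, against 60.0, 47.4 and 11.4 CPM at 5 DAF. In both, 14 DAF library 2 stood above its partners, 5 DAF library 3 stood below its partners, and the stages overlapped. The class I factor TaHDZ7A (TraesCS2A02G389400, 2A) was higher at 14 DAF at a low level, with 1.33, 0.87 and 0.67 CPM, against 0.22, 0.059 and 0.085 CPM at 5 DAF (log2 fold change 2.98 ± 0.56, edgeR adjusted p = 0.00116).

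The stage difference of TAM111 was set against that of TAM112 by the interaction of cultivar and stage in the same fit. In TAM112, 21% of the tested genes were called between its stages, 11.8% higher and 9.27% lower at 14 DAF, and of the 34 transcription factors 15 were higher and 3 lower. The interaction was called in 201 of 65080 genes (0.309%), of which 170 were also called between the TAM111 stages. In 92 the log2 fold change was more positive in TAM111 and in 109 more negative. Among the 34 transcription factors the interaction was called in 0 by edgeR, with 21 at an unadjusted p under 0.05, as were 23.3% of all tested genes, and DESeq2 called 7, against 5.4% of the genes it gave an adjusted p. Same-numbered 5 DAF libraries of the cultivars deviated together, while those of 14 DAF had correlations of 0.107, -0.223 and -0.0744. With the replicate number as a block the interaction was called in 105 genes (0.161%). This block gives both stages the same effect, so it does not model a pairing confined to 5 DAF. With the third 5 DAF library of both cultivars left out, a choice made after seeing the data, it was called in 876 of 66386 genes (1.32%) and in 15 of the 34 factors, which the study had picked for a difference between the cultivars. These were 2 of 3 NF-YC genes, all 3 Dof genes, the CCAAT_Dr1 gene, 7 of 12 NAC genes and 2 of 6 MYB-related genes. TraesCS7A02G336700 shows the pattern. In TAM112 it had 29.9, 34.2 and 105 CPM at 14 DAF, against 70.2, 112.3 and 4.23 CPM at 5 DAF, so the stages overlapped there while in TAM111 they did not. Its interaction was 4.09 on the log2 scale (edgeR adjusted p = 0.00856) without the third 5 DAF libraries, and 4.12 (adjusted p = 0.18) with all libraries. The TAM112 libraries are uneven too. In TAM112, 14 DAF library 3 was over 8-fold above both of its partners in 355 genes, and 5 DAF library 3 was over 8-fold below both of its partners in 539 genes.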

How the data were processed

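The 12 libraries hold poly-A RNA of developing grains, and their groups (3 libraries each) were read from the labels. According to its methods, reads were trimmed (Cutadapt 2.8, Trimmomatic 0.39), aligned by HISAT2 (2.1.0) to the IWGSC RefSeq assembly (version 1.0) and counted per gene of annotation 1.1 with featureCounts of Subread (1.6.2). How strand and multiply matching reads were handled is not given in the sources used here, so near-identical and overlapping genes are uncertain. The values used are the whole-number counts the authors deposited, with no normalization.

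The counts were tested in R (4.3.3) with edgeR (4.0.16), using filterByExpr, TMM factors, a coefficient per group over all 12 libraries and the quasi-likelihood F test with Benjamini-Hochberg adjustment over the 65080 genes kept. Calls required an adjusted p below 0.01 and a log2 fold change beyond 1 in either direction, and the study's ashr and IHW steps were not used. Standard errors are the absolute log2 fold change over the square root of F. CPM uses TMM-scaled library sizes, and TPM was computed from counts and gene lengths. A gene was at the floor of a stage with at most 3 counts in each library, and lower bounds of fold use the mean CPM of 3 counts. Floors cover counting error only, because PCR copies were not told apart. On simulated data for the TAM111 stage comparison of 63492 genes, the test called 114 of 200 genes changed 4-fold among 116 calls. The simulation changed only these 200 genes and drew all libraries independently, so its rates need not hold in the data. Replicate numbers are shared by all groups. Same-numbered 5 DAF libraries of TAM111 and TAM112 had deviations from their group means that correlated at 0.365, 0.340 and 0.528, which was read as pairing of the cultivars at 5 DAF, with no label behind it. Deviations within a group sum to zero, which ties the 3 correlations to each other.

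Described genes are the 10 most abundant called in each direction (2 of each by identifier), all 34 transcription factors of the study's tables, runs of called neighbours and the genes with the largest TAM111 change among those called in the interaction. The genes with the most extreme fitted fold changes lie at the floor and are covered by counts. Members and lists were chosen with earlier results of these data known. Of the file's identifiers 0 matched the gene table at hand, so the planned lists by gene description were replaced by the transcription factor families and by exon, level and position classes. Sequences were not used here. Alternatives were other scalings, filters, tests and thresholds, a replicate block and leaving out libraries.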

Additional observations from a re-analysis of the deposited data

Results flagged for a closer look

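The stage difference differed between TAM111 and TAM112 by the interaction test in 201 genes. Among these, the 3 with the largest TAM111 change are given by position. A 4-exon gene on 1D (398456323 to 398459823) had 9.80 ± 0.18 CPM at 14 DAF and no count at 5 DAF in TAM111, whereas in TAM112 it had 17.3 ± 0.69 CPM at 14 DAF and 16.01 ± 2.25 CPM at 5 DAF (SD, n = 3 each). It was thus present at both stages in TAM112 and only at 14 DAF in TAM111, and the fitted interaction of 11.33 on the log2 scale depends on the prior count. A single-exon gene on 6A (484039002 to 484039682) had 105 ± 4.21 CPM at 14 DAF and 0.039 ± 0.017 CPM at 5 DAF in TAM111. In TAM112 it had 10.9 ± 3.13 CPM at 14 DAF and 0.24 ± 0.11 CPM at 5 DAF. At 5 DAF this gene was at the floor in TAM111 (1, 2 and 1 counts), so its fitted interaction of 5.75 depends on the prior count too. An 8-exon gene on 1A (13971819 to 13976728) had 5.26 ± 1.08 CPM at 14 DAF and no count at 5 DAF in TAM111, against 3.995 ± 1.19 CPM at 14 DAF and 0.67 ± 0.14 CPM at 5 DAF in TAM112, with a fitted interaction of 7.97 that also depends on the prior count.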

How the results depend on the processing

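The number of genes called between the TAM111 stages was 15609. It was 10184 when at least 10 counts were required in every library, a filter that removes genes silent at 1 stage, and 6633 with the glmTreat test against a log2 fold change of 1, and it lay within 1.5 times of 15609 under every other alternative run. Leaving out 1 library gave 12401 to 14260. The genes called higher were 5289 with the count filter and 4176 with glmTreat (6809 to 7535 leaving out 1 library), and the genes called lower were 2457 with glmTreat (5577 to 6725). The transcription factors called higher were 3 with the count filter, 26 at an adjusted p under 0.05, 28 in the fit to TAM111 alone without 5 DAF library 3, 27 without the third 5 DAF library of both cultivars (16 to 19 leaving out 1 library), and those called lower were 0 with the count filter, which left few of them to test (3 to 4). With glmTreat, TraesCS1D02G034800, TraesCS1B02G042200 and TraesCS2D02G234000 missed the threshold (adjusted p = 0.0832, 0.0216 and 0.0128). The log2 fold change of TraesCS5B02G043100 was 0.19 without 5 DAF library 1 and lay between -7.99 and 0.19 as each library was left out.

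The interaction count was the least stable. It was 201, and 891 with library totals alone, 413 with no filter, 561 with the count filter, 3239 with DESeq2, 17 with glmTreat, 2986 at an adjusted p under 0.05 and 876 without the third 5 DAF libraries. Leaving out 1 library gave 28 to 963, with 963 without TAM112 14 DAF library 3 and 912 without TAM112 5 DAF library 3. The cause was not tested. The difference in TPM share was 5.56 percentage points for the 20 and 15.5 for the 100 most abundant genes.

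Same-numbered TAM111 libraries of the stages had deviations that correlated at 0.029, 0.0075 and 0.045, and not every library correlated best with its own number. No pairing across the stages was seen in these values, and the labels give only the number. With the replicate number as a block, 15167 genes and 20 of the 34 transcription factors were called, the interaction was called in 105, and no other call of a named gene changed.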
